A study of Mus musculus with 4 samples.

Results

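The guanylate-binding proteins (Gbp family) were read in C2C12, a single established line of mouse myoblasts whose cells fuse into multinucleated myotubes when serum is lowered. The 10 members, Gbp2, Gbp2b, Gbp3, Gbp4, Gbp5, Gbp6, Gbp7, Gbp8, Gbp9 and Gbp10, were found through the transcript accession of every array probe that was not a control. The 10 are among 19751 genes with a probe. They have 12 of 39429 probes, since Gbp2b and Gbp6 had 2 probes each and the other members 1 each. Every one of the 12 was kept, and all 12 were among the 28921 probes bright enough to be tested. The treated cells had interferon-gamma (IFN-γ) at 1 ng/ml during 3 days of myogenic differentiation, and the control cells differentiated over the same days without it. The medium of both held horse serum, which the labels give as 2% in one field and 10% in another. Each of 4 two-colour arrays set treated RNA, in the Cy5 dye, against control RNA, in Cy3, and the labels number the treated cultures as replicates 1 to 4 without saying whether the controls were separate cultures. P-values therefore measure the spread between these arrays, which may be partly technical. Treated RNA carried Cy5 on every array, so dye and treatment cannot be told apart for any probe. The study asked how IFN-γ acts on transcription during muscle differentiation.

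Gbp genes encode large GTPases of the dynamin superfamily, related to the atlastins, and are among the classical targets of interferon. Receptor binding activates JAK kinases, and the signal reaches promoters at gamma-activated sites (GAS) and at interferon-stimulated response elements (ISRE), which interferon regulatory factors such as IRF1 bind. The proteins assemble on pathogen vacuoles and on bacteria inside the cell, act together with the smaller immunity-related GTPases (IRG), and feed bacterial products into inflammasomes. Gbp2, Gbp2b and Gbp5 end in a CaaX motif that receives a lipid anchor.

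Promoter sequence was at hand for part of the family only. Of the 10 members, 5 had an entry in the RefSeq promoter table (build GRCm38.p6), and these are the 5 that lie side by side on chromosome 3. The 250 bases before the start of each are printed here from 5′ to 3′ because each held a match, shown in capitals. Capitals mark the GAS pattern TTCNNNGAA, which reads the same on both strands, and the ISRE core, 2 copies of GAAA with any 2 bases between them, searched on both strands. Each ISRE match here lies on the opposite strand and so reads TTTC, any 2 bases, TTTC. The build is not that of the array's own header, which names mm9.
Gbp3, chr3:142559794-142560043, plus strand: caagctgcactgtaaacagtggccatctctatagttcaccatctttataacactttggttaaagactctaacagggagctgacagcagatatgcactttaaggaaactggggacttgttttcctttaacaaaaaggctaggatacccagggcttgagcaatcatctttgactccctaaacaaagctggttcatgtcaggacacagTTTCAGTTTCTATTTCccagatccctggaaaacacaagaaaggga
Gbp2b, chr3:142594597-142594846, plus strand: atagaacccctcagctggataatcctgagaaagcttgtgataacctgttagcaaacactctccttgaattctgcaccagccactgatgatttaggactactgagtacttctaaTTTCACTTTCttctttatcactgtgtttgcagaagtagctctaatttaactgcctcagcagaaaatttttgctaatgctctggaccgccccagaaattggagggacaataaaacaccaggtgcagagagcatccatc
Gbp7, chr3:142530086-142530335, plus strand: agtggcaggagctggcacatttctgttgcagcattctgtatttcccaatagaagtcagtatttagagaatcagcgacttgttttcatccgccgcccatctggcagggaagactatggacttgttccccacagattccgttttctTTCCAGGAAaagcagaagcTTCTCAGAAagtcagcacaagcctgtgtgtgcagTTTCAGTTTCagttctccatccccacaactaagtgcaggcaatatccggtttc
Gbp2, chr3:142620413-142620662, plus strand: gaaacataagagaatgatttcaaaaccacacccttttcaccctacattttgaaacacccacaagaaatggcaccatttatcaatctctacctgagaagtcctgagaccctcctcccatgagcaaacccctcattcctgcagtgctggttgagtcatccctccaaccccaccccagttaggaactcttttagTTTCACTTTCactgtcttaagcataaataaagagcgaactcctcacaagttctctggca
Gbp5, chr3:142496684-142496933, plus strand: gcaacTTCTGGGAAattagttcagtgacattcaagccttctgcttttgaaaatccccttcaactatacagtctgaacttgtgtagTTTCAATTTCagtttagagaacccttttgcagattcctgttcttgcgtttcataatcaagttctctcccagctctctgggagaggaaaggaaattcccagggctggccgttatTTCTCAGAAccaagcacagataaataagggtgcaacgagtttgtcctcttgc
An ISRE core was present before the start of all 5 genes, against 3.44% of all 32851 promoter windows of 300 bases in that table. It began 45 bases before the start in Gbp3, where a second match overlapped it from 39 bases before the start. In Gbp7, Gbp2, Gbp2b and Gbp5 it began 53, 59, 137 and 165 bases before the start. GAS matches were present in 2 of the 5, against 8.30% of all windows, namely in Gbp7, at 106 and 87 bases before the start, and in Gbp5, at 245 and 52 bases. The second start listed for Gbp3 had neither pattern. A match describes the letters only, and binding was not measured.

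IFN-γ raised the Gbp family nearly as a whole, and every member gene had at least 1 probe that rose. Of the 12 probes 11 were higher at an adjusted p under 0.05 (limma, Benjamini-Hochberg over all tested probes), against 16.5% of all tested probes, and the same 11 were higher on 4 of 4 arrays. The unit here and below is the log2 ratio of treated over control after loess normalisation, a difference and not a level, with its SD over the 4 arrays. Rises ran from 0.78 for Gbp10 to 7.08 for Gbp3, with a median of 3.89 over the 11 probes and SDs between 0.077 and 0.40. At least 2-fold rises were seen for 10 probes, against 1.45% of all tested probes, at least 8-fold rises for 8 and at least 30-fold rises for 4. The median over all 12 probes was 3.79, against 0.014 over all tested probes. None of the 12 was called lower, against 12.6% of all tested probes, with 0 at an unadjusted p under 0.05 (limma) and 0 by the unpaired test that the study's design names. Ranked by mean ratio over all tested probes, 4 of the first 10 and 7 of the first 50 were Gbp probes, and the 5 other genes with a symbol and the largest rises were the IRG genes Igtp, Iigp1, Tgtp2 and Ifi47 and the nucleic acid sensor Zbp1.

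**Figure D1:**
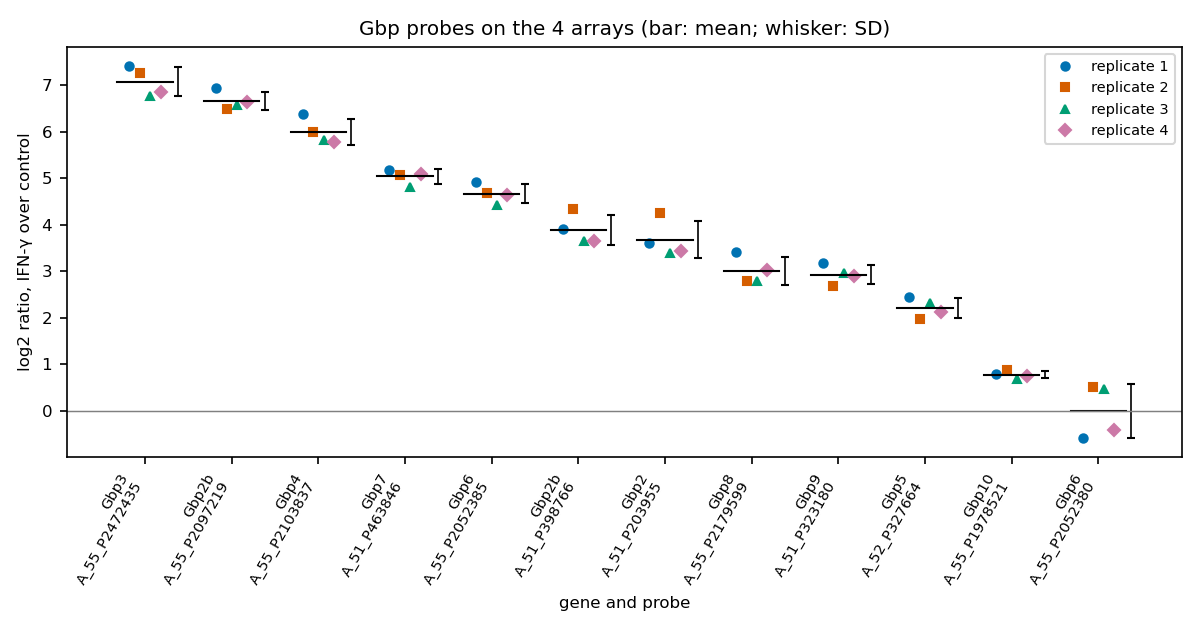
Log2 ratio of IFN-γ over control (vertical axis) of the 12 Gbp probes (horizontal axis, in order of their mean), with 1 symbol per array, a bar at the mean and a whisker of 1 SD (n = 4 arrays). All arrays lie above 0 for 11 probes, while the brighter Gbp6 probe lies on both sides of 0, from −0.58 to 0.51.

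The members with a lipid anchor all rose, by amounts that differed widely. Gbp2, which is recruited to parasite vacuoles and to cytosolic bacteria, had log2 ratios of 3.61, 4.26, 3.40 and 3.44 on replicates 1 to 4, a mean rise of 3.68 ± 0.40 (SD, n = 4) or 12.8-fold with a limma adjusted p of 9.24e-05. Replicate 2 was the high array, and the other 3 lay close together. Its scanned Cy3 intensities of 2205.5, 881.5, 1584.5 and 1752 in control cells were far above the local background of 37 to 42, so Gbp2 was measured in the control channel on all 4 arrays.

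Gbp2b, formerly named Gbp1, was read by 2 probes that both rose but differed in size. Probe A_55_P2097219 had 6.94, 6.48, 6.57 and 6.65 on replicates 1 to 4, a mean of 6.66 ± 0.20 or 101-fold (limma adjusted p = 6.11e-06). Probe A_51_P398766 had 3.91, 4.35, 3.65 and 3.65, a mean of 3.89 ± 0.33 or 14.8-fold (limma adjusted p = 4.41e-05). The 2 probes did not overlap on any array. The second lay below the first by 2.13 to 3.03, and an exact sign-flip permutation test over the 4 arrays, two-sided, gave p = 0.125, the smallest that 4 arrays allow. A_55_P2097219 had scanned intensities of 103 to 133 in control and 31948 to 73551 in treated cells. A_51_P398766 had 549 to 1308 in control and 34014 to 75973 in treated cells. Levels of different probes cannot be set against each other, and which transcripts each of them binds was not tested.

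Gbp5, which promotes inflammasome assembly, had the smallest rise of the chromosome 3 genes. Its ratios were 2.46, 1.97, 2.31 and 2.14 on replicates 1 to 4, a mean of 2.22 ± 0.21 or 4.66-fold (limma adjusted p = 9.73e-05). Scanned intensities were 57 to 78 in control cells, where the probe was well above background on 3 of 4 arrays, and 753 to 1732 in treated cells. The groups did not overlap, but the size of the rise depended on how the dim control signal was handled, with 3.71 ± 0.58 from the scanner software's own ratio (Agilent Feature Extraction).

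Gbp3 and Gbp7, the chromosome 3 members without a CaaX end, rose by more than Gbp2 and Gbp5. For Gbp2b, which has that end, probe A_55_P2097219 had 6.66, more than Gbp7, and probe A_51_P398766 had 3.89, less than Gbp7. Gbp3 had 7.42, 7.27, 6.76 and 6.86 on replicates 1 to 4, and its mean of 7.08 ± 0.32, or 135-fold, ranked first of all 28921 probes tested. In control cells it was dim but well above background on all 4 arrays, at 113 to 165, and in treated cells it reached 59781 to 112078 with no spot marked as saturated. Gbp7 had 5.18, 5.08, 4.81 and 5.09, a mean of 5.04 ± 0.16 or 32.9-fold (limma adjusted p = 6.11e-06). These 4 values lay close together, lowest on replicate 3. Its control intensity of 48 to 59.5 was well above background on 1 array only, against 6214.5 to 10533 in treated cells, and with Feature Extraction's ratio its mean was 8.06 ± 0.91, the highest of the family.

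**Figure D2:**
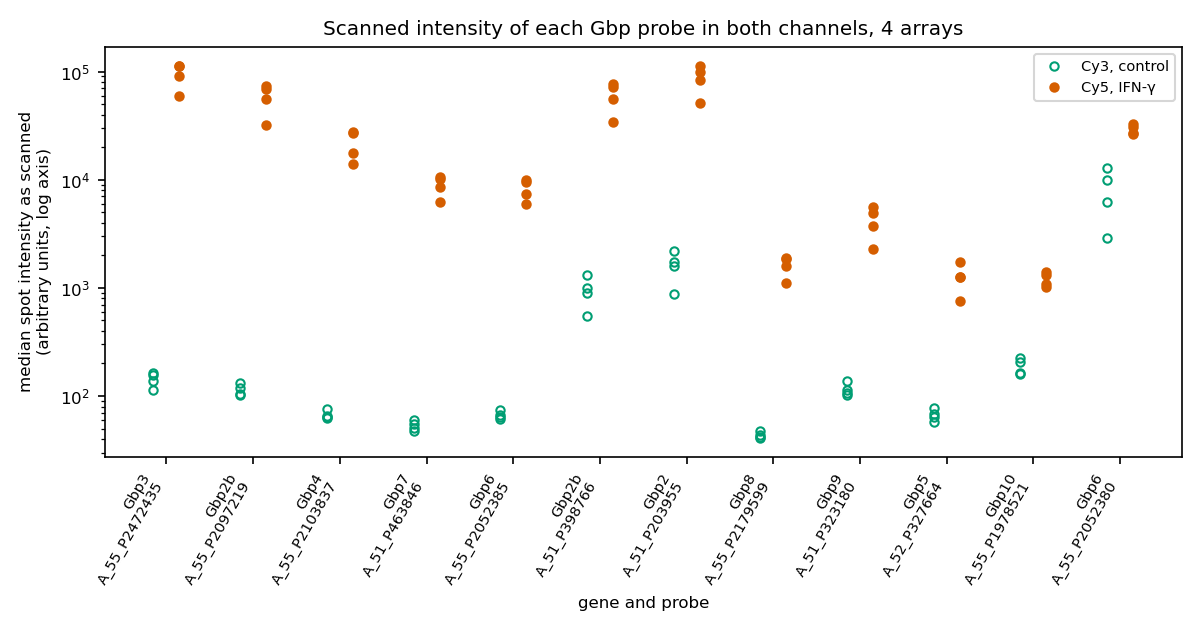
Median spot intensity as scanned (vertical log axis, arbitrary units) for each Gbp probe in control RNA (Cy3, open) and treated RNA (Cy5, filled) on the 4 arrays. Most probes are dim in control and bright in treated RNA, such as Gbp3 at 113 to 165 against 59781 to 112078, while the Gbp6 probe A_55_P2052380 is bright in both.

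The 5 members of the other cluster, which also lie next to each other in the gene order, rose from 0.78 to 5.997 on their responding probes. Gbp4 had 6.38, 5.99, 5.83 and 5.78 on replicates 1 to 4, a mean of 5.997 ± 0.27 or 63.8-fold (limma adjusted p = 7.83e-06). Its control intensity was 63 to 76, well above background on 2 arrays, and its treated intensity 14095 to 27543. No treated value came near a control value.

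Gbp6 was the member whose probes disagreed. Probe A_55_P2052385 had 4.93, 4.69, 4.42 and 4.64 on replicates 1 to 4, a mean of 4.67 ± 0.21 or 25.5-fold (limma adjusted p = 8.95e-06). Probe A_55_P2052380 had −0.58, 0.51, 0.48 and −0.41, a mean of 0.00061 ± 0.57 (limma adjusted p = 0.999). The first was high on every array and the second had 2 arrays on each side of 0, with a difference between them of 3.94 to 5.51 and an exact sign-flip permutation p of 0.125, again the smallest possible with 4 arrays. The second probe was bright in control cells, at 12724, 6234, 2893 and 9921, and in treated cells, at 30922, 26189, 26962 and 32953. The first had 61 to 75 in control cells and 5932.5 to 9881.5 in treated cells. Both carry the same Gbp6 transcript accession. A summary by the brightest probe of each gene gives the second probe and leaves Gbp6 without a call.

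Gbp8 and Gbp9, neighbours in the cluster, both rose. Gbp8 had 3.41, 2.79, 2.78 and 3.03 on replicates 1 to 4, a mean of 3.00 ± 0.30 (limma adjusted p = 7.74e-05). Its control intensity of 41 to 47 was not well above background on any array, so the size of its rise is uncertain. The mean corresponds to 8.02-fold, from mean normalised log2 intensities of 6.83 in control and 9.83 in treated RNA. No Gbp8 control value lay below the dimmest probe well above background on its array. Raising control values to that level therefore left the fold unchanged and does not bound it. Dye bias can also move the fold. Without replicate 1 the mean was 2.87. Gbp9 was measured in both channels on all arrays and had 3.19, 2.68, 2.97 and 2.89, a mean of 2.93 ± 0.21 or 7.64-fold (limma adjusted p = 3.80e-05). With Feature Extraction's ratio the means were 6.96 for Gbp8 and 3.59 for Gbp9, and the sizes of the 2 rises were not compared.

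Gbp10 moved least among the called probes, and most evenly. It had 0.79, 0.87, 0.69 and 0.76 on replicates 1 to 4, a mean of 0.78 ± 0.077 or 1.71-fold (limma adjusted p = 0.00126). Scanned intensities were 159 to 225.5 in control and 1009 to 1397 in treated cells, a wider gap than the ratio after loess. Cy5 was brighter on every array, with medians over all probes of 149.5 to 264 against 79.8 to 97 in Cy3. How much of the difference this offset accounts for was not tested. The probe stayed higher under each background correction and normalisation tried, from 0.78 to 1.56. With loess it lies under the 2-fold limit that the study's design sets. With each array centred on the median of all probes or of tested probes, without loess, it had 1.56 and 1.05, above that limit.

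Gbp8, whose control signal was not well above background on any array, is given no place in the order of mean ratio. Between the other neighbours in that order the higher probe exceeded the lower on all 4 arrays, by 0.21 ± 0.089 for Gbp2b probe A_51_P398766 over Gbp2 and by up to 1.44 ± 0.26 for Gbp5 over Gbp10. Gbp3 exceeded the stronger Gbp2b probe by 0.42 ± 0.28. The first Gbp2b probe exceeded Gbp4 by 0.66 ± 0.17, and Gbp4 exceeded Gbp7 by 0.96 ± 0.21. With 4 arrays the exact permutation test cannot go below p = 0.125 for any single gap, and the order itself changed with the processing.

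The size of several rises depended on the processing, and the direction of the 11 called probes did not change under any normalisation or background setting tried. Under Feature Extraction's ratio the means were 8.06 for Gbp7, 7.89 for Gbp4, 7.75 for Gbp3, 6.96 for Gbp8 and 6.62 for the responding Gbp6 probe, so that Gbp7 and not Gbp3 came first. Under the same ratio 2 probes that were bright in control cells hardly moved, with 3.73 for Gbp2 and 3.94 for Gbp2b probe A_51_P398766. With a smaller offset of 16 in place of 50 in the background correction Gbp8 had 3.91 and Gbp7 5.93. Centring each array on the median of all probes, without loess, put the median of tested probes at 0.54 and that of the Gbp probes at 4.83, with 1.05 for Gbp6 probe A_55_P2052380, which then passed. Over all tested probes the calls were 4778 higher and 3633 lower under loess, and 16793 and 5939 with that centring.

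**Figure D3:**
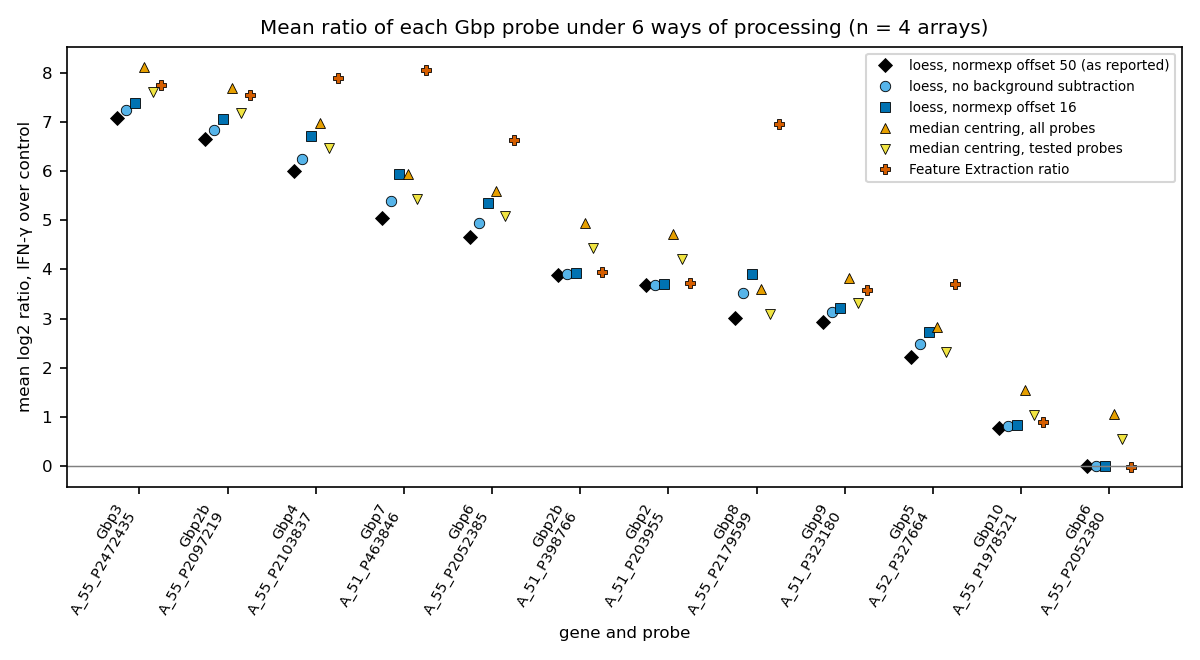
Mean log2 ratio over 4 arrays (vertical axis) of each Gbp probe (horizontal axis) under 6 combinations of background correction and normalisation. Gbp2, bright in control RNA, runs from 3.68 to 4.73, and Gbp8, not well above background there, from 3.00 to 6.96.

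Genes beside the clusters had ratios on both sides of 0. The Gbp genes form 2 runs of 5 in the gene order of the RefSeq table, Gbp5, Gbp7, Gbp3, Gbp2b and Gbp2 in one and Gbp8, Gbp9, Gbp4, Gbp10 and Gbp6 in the other. The 4 nearest tested genes on each side of each run, 16 in all, had mean ratios between −1.03 and 1.72, each read by the brightest probe of the gene. Of these 6 were higher and 4 lower, and 6 did not pass, against 18.8% higher and 12.9% lower over all genes. Next to Gbp5 came Pdlim5 at −0.55 ± 0.30, which passed, and next to Gbp2 came Kyat3 at 0.041 ± 0.11, which did not. Beyond them lay Bmpr1b at −0.060, Unc5c at 0.73 and Pdha2 at −0.44 on one side, and Gtf2b at 0.48, Pkn2 at −0.27 and Lmo4 at 0.68 on the other. Next to Gbp8 came Zfp951 at 0.19 ± 0.099 and Thoc2l at −0.24 ± 0.73, neither of which passed, then Pkd2 at 0.58 and Spp1, which encodes osteopontin, at 1.72 ± 0.27. On the far side of Gbp6 lay Lrrc8b, a subunit of volume-regulated anion channels, at −1.03 ± 0.29, then Lrrc8c at 0.31, Lrrc8d at −0.21 and Zfp326 at 0.23. Under one or both kinds of median centring the signs of Pdlim5, Pkn2, Zfp951, Thoc2l and Lrrc8d turned, and Bmpr1b and Kyat3 turned under other settings.

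**Figure D4:**
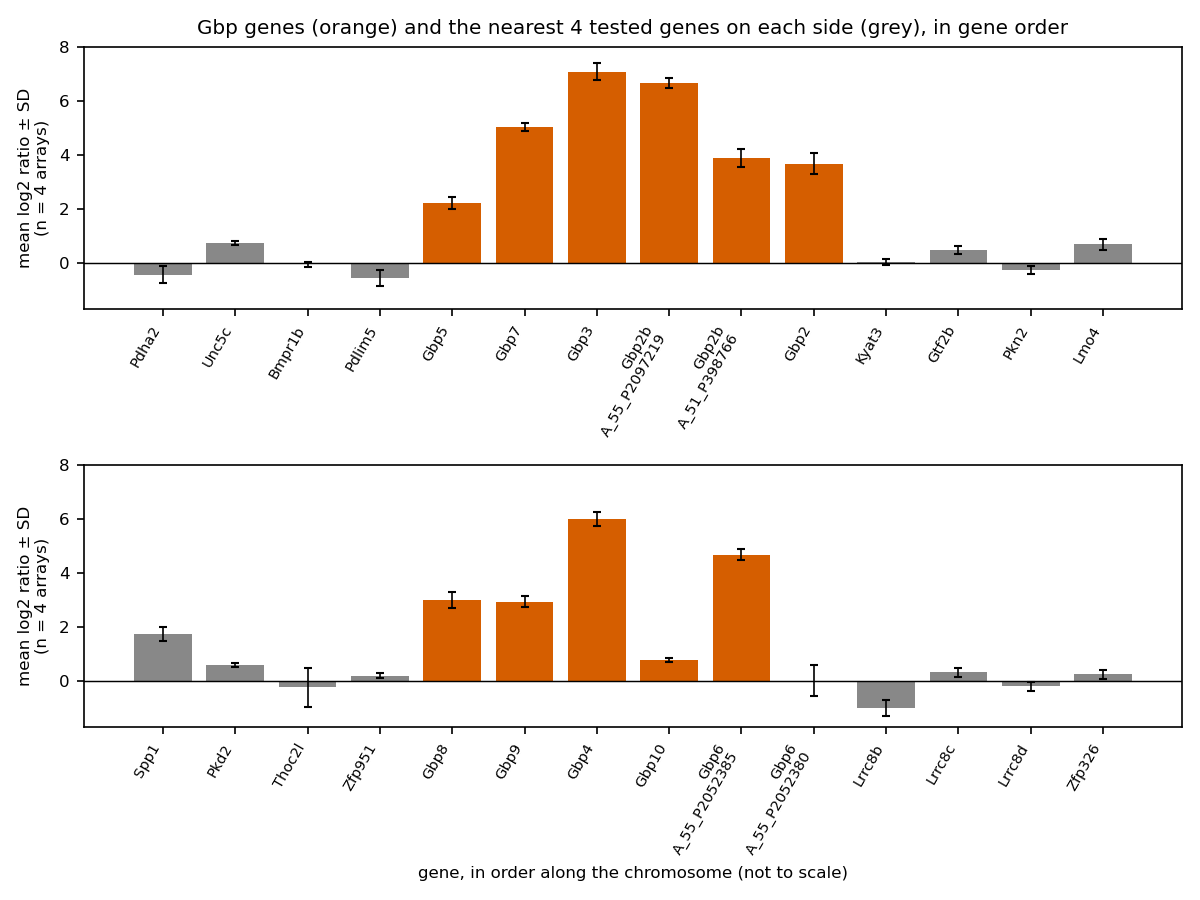
Mean log2 ratio with SD (n = 4 arrays, vertical axis) of Gbp probes (orange) and of the nearest tested genes on each side (grey), in gene order and not to scale, with 1 panel per cluster. The grey bars lie between −1.03 and 1.72 and the orange bars reach 7.08.

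The IRG GTPases, partners of the Gbp proteins at pathogen vacuoles, rose as completely. Of 13 symbols listed, among them the giant GTPase Gvin1, 9 had a tested probe and all 9 rose (limma). Their median was 4.69, the value of Gvin1, against 0.026 over the brightest probes of all genes. By the brightest probe of each gene Igtp had the largest rise at 6.65 ± 0.23, followed by Tgtp2 at 5.43 ± 0.18 and Ifi47 at 5.24 ± 0.24. The second Tgtp2 probe had 3.23, and Iigp1 had 3.15 on its brightest probe and 6.19 on the other. By the same rule of the brightest probe 9 of the 10 Gbp genes rose, with a median of 3.34, and Gbp6 did not pass. More distant relatives of the dynamin superfamily that could be tested had a median near 0. Mx1 and Mx2, also listed, had no matched probe and were not tested. The median over 14 tested atlastin, dynamin, mitofusin, Opa1 and Eps15-homology domain genes was 0.0057, with 2 higher, 3 lower and 9 short of the threshold, against 18.8% higher and 12.9% lower over all genes, while centring on all probes called 11 of them higher. Dnm1, a dynamin of endocytosis, had −1.17 ± 0.57 and was called lower, although its second probe had −0.062 and centring on all probes left it without a call. Ehd1 and Dnm2 had −0.36 ± 0.24 and −0.34 ± 0.086, both past the threshold, with positive signs under both kinds of median centring. Their second probes had 0.031 and 0.019 and did not pass. Ehd4 had −0.11 ± 0.21 and did not pass, with a positive sign under both kinds of median centring.

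Along the signal that reaches the Gbp promoters, several transcription factors rose, while the receptor chains and both kinases did not pass. Calls among 18 tested genes were 9 higher and 1 lower, against 18.8% and 12.9% over all genes, 8 missed the threshold and the median was 0.30, and under both kinds of median centring 16 were called higher. Ifngr1 and Ifngr2, the receptor chains, had 0.25 ± 0.20 and 0.020 ± 0.28, and the kinases Jak1 and Jak2 had 0.28 ± 0.19 and 0.26 ± 0.23. These 4 were among the genes called higher under median centring. Irf1 rose by 2.74 ± 0.20, with 0.29 on its second probe. The basic leucine zipper gene Batf2 rose by 4.35 ± 0.29 and the MHC class I transactivator Nlrc5 by 4.50 ± 0.19, with 0.71 on its second probe. Ptpn11, a phosphatase, had −0.061 ± 0.15, and its sign turned under median centring.

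Genes of the machinery that Gbp proteins work with were read next, against 18.8% called higher and 12.9% lower over all genes. Calls among 15 tested inflammasome and pyroptosis genes were 7 higher and 8 short of the threshold at a median of 0.074, with 11 higher when centring on all probes. Zbp1 rose by 3.24 ± 0.26, with 4.92 on its second probe, Casp1, the inflammatory caspase, by 2.11 ± 0.34 and Gsdmd, the pore-forming gasdermin, by 1.07 ± 0.35. Naip5 had −0.42 ± 0.39 and did not pass, with a positive sign under median centring. ATG8 conjugation and ubiquitin tagging guide Gbp proteins to vacuoles, and among 16 tested genes of these pathways 5 were called higher and 2 lower at a median of 0.094, with all 16 higher when centring on all probes. Ubd, a ubiquitin-like protein, rose by 2.44 ± 0.41, Trim21 by 2.27 ± 0.21 and Atg3, an ATG8-conjugating enzyme, by 0.89 ± 0.19. The ATG8 gene Gabarapl1 had 0.17 ± 0.28.

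The enzymes that make, attach and trim the CaaX lipid were called in both directions. The 10 tested genes had a median of −0.21, with 1 called higher, 2 lower and 7 short of the threshold, against 18.8% higher and 12.9% lower over all genes. Fntb, the beta subunit of farnesyltransferase, had 0.40 ± 0.26 and was called higher, with 0.145 on its second probe, which did not pass. Fnta, its alpha subunit, had −0.19 ± 0.32 on its brightest probe, which did not pass, and −0.97 on its second probe (limma adjusted p = 0.00062). Icmt, the CaaX methyltransferase, and Hmgcs1, of the mevalonate pathway, had −0.37 ± 0.15 and −0.29 ± 0.14, both called lower, with positive signs under both kinds of median centring. Fdps had −0.19 ± 0.15, likewise turning. The other Icmt probes had −0.35 and −0.070 and did not pass. With centring on all probes all 10 were called higher, so no direction holds for this list.

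**Figure D5:**
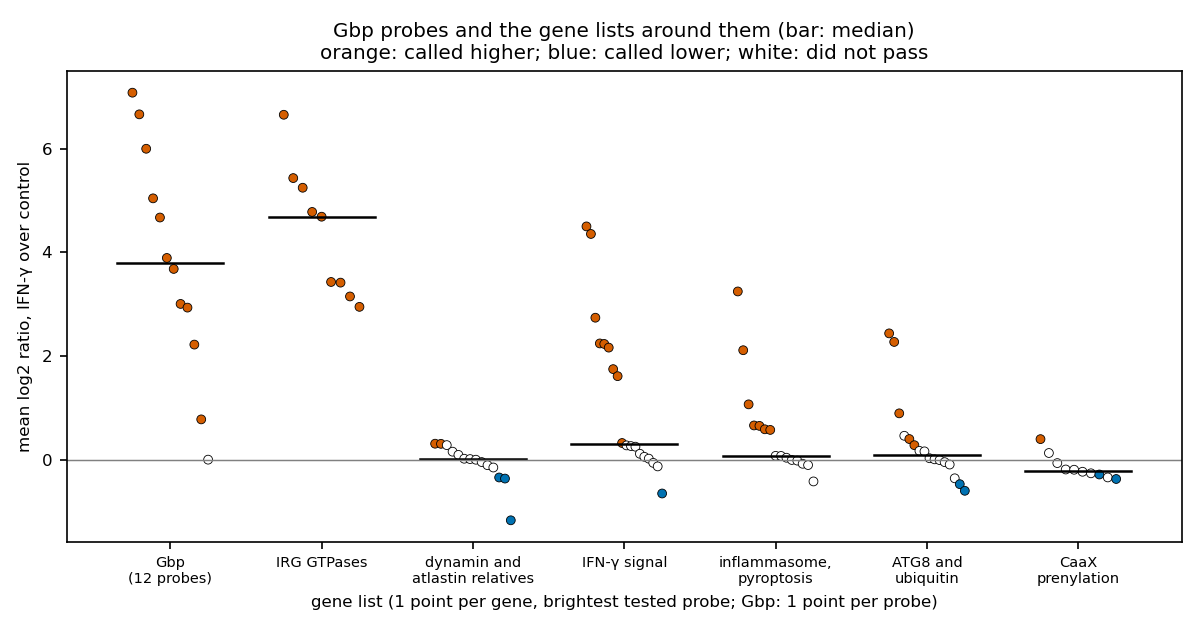
Mean log2 ratio (vertical axis, n = 4 arrays) of the 12 Gbp probes and of the brightest tested probe of each gene in 6 lists (horizontal axis), with a bar at the median and colour by call. Gbp and IRG points lie mostly above 2, while medians of the other lists lie between −0.21 and 0.30.

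The labelled cell type was checked against its markers. All 12 skeletal muscle markers were well above background in both channels on at least 3 arrays, and 7 of them were called lower and 1 higher, against 12.9% and 18.8% over all genes, with a median of −0.62, while centring on all probes called 9 of them higher. Their summed normalised intensity was 362800 to 451600 in control and 265100 to 307400 in treated RNA, and, in bulk RNA, fewer cells of a type and less RNA per cell cannot be told apart. Of 11 macrophage and leukocyte markers with a probe, 6 were above background in control and 10 in treated RNA, with summed intensities of 57400 to 80850 and 45730 to 72450. In that list 1 rose, 2 fell and 7 did not pass. Those that fell, Csf1r at −0.40 and Cd3e at −0.44, were called higher when centring on all probes. The other Csf1r probes had −0.061 and 0.030 and did not pass. Lyz2, the macrophage lysozyme, was not above background in either channel. Of the fibroblast markers 3 of 5 rose, with a summed intensity of 91870 to 136300 in control and 122800 to 145300 in treated RNA, and of the endothelial markers 1 of 4 fell. Centring on all probes called 5 macrophage and leukocyte, 5 fibroblast and 1 of the endothelial markers higher. Their part in the Gbp rise was not tested. Correlations between arrays over all tested probes ran from 0.54 to 0.89, lowest for replicate 2.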

How the data were processed

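RNA from treated and control C2C12 cells, 8 µg per labelling per the labels' protocols, was hybridised to 4 two-colour Agilent arrays. The deposited files hold spot intensities from the scanner software (Agilent Feature Extraction 10.7.3.1 per the submitters' processing notes), and the log10 ratio of Cy5 over Cy3 in the deposited files is that software's own, background-subtracted and dye-normalised. The authors' deposited value table is in log2 units, with slopes of 3.32 on the log10 ratios and column medians from −0.12 to −0.11. Its centring stays unknown, and it was used as an alternative. Per the design text, the authors removed probes by detection flags, used an unpaired test, adjusted by Benjamini-Hochberg and set a limit of 2-fold.

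Median intensities were background-corrected by normexp (offset 50) and normalised by loess within arrays in limma 3.58.1 under R 4.3.3, with control spots and outlier-flagged spots at weight 0 and the latter left out. A probe was tested if 1 channel was well above background on 3 or more of the 4 arrays. Tests used lmFit and eBayes, two-sided, with no covariates, at an adjusted p of 0.05. Of 39429 probes 26055 had 1 symbol through the RefSeq gene table, 0 had several and 13374 had none. Probe sequences were not used here, so cross-hybridisation between near-identical Gbp transcripts was not tested. List genes are read by their brightest tested probe. From each list the 3 called genes with the largest change and the brightest gene that did not pass are named, with fixed signalling genes and neighbours beside them. 1 gene that the rule names is not reported here. Protein features, part of the fixed rule, were not computed. The members, lists and rules were chosen with earlier results of these data known. Scripts were tested on simulated data. The number of arrays limits the precision.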

Additional observations from a re-analysis of the deposited data

How the results depend on the processing

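Of the 11 Gbp probes called higher, each kept its sign under every setting in which it was tested, and each kept its call except Gbp10 under the methods' t-test with its 2-fold limit (10 Gbp probes called). Gbp6 probe A_55_P2052380 had −0.00042 without background subtraction, −0.0095 with Feature Extraction's ratio and with the authors' deposited table, and from −0.17 to 0.19 when 1 replicate was left out (−0.17 without replicate 2, −0.16 without replicate 3). With both kinds of centring that probe was called higher, at 1.05 on all probes and 0.54 on tested probes. Where a probe had to be above background in both dyes on all 4 arrays, 6 Gbp probes of 5 genes were left as called higher, since fewer were tested. Over all probes, higher and lower calls were 16793 and 5939 with centring on all probes, 10477 and 10981 with centring on tested probes, 3111 and 2173 with 1 probe per gene, and 411 and 241 with the methods' t-test, whose lower calls were 2365 with no fold limit, a setting chosen after seeing the data. Probes at least 2-fold higher numbered 1358 with Feature Extraction's ratio, 1356 with the authors' table, 7280 and 1411 with the 2 kinds of centring. Over the 6 gene lists, 33 genes were called higher and 8 lower; centring gave 73 and 2 on all probes and 56 higher on tested probes, Feature Extraction's ratio, the authors' table and the methods' t-test with no fold limit gave 5 lower, and the last with its fold limit 1 lower. Leaving out 1 replicate kept 11 Gbp probes as called higher, while over all probes higher calls ran from 1913 to 6331 (2921, 6331, 1913 and 2138 without replicates 1, 2, 3 and 4), lower calls from 1151 to 5546 (1951, 5546, 1151 and 1265), and list genes called lower from 0 to 13 (2, 13, 0 and 1). Dim control signal limits the folds of Gbp4, Gbp5, Gbp7, Gbp8 and the responding Gbp6 probe. All arrays shared 1 dye orientation. The cause of these shifts was not tested.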

Other observations

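The arrays did not rank the Gbp probes alike. Replicate 1 had the highest ratio for 8 of the 12 probes, among them Gbp3, Gbp4, Gbp7, Gbp8 and Gbp9, and replicate 2 for the other 4. Those 4 were Gbp2, Gbp2b probe A_51_P398766, Gbp10 and Gbp6 probe A_55_P2052380. Replicate 3 was lowest for 7 of the 12. The median ratio over the 12 probes was 3.76, 4.30, 3.53 and 3.55 on replicates 1 to 4.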
